A study of Mus musculus with 8 samples.

Results

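The 10 genes described here set the first brake and the first accelerator of the cell cycle. They are the CDK inhibitors Cdkn1a, Cdkn1b, Cdkn1c, Cdkn2a, Cdkn2b and Cdkn2c, the D cyclins Ccnd1, Ccnd2 and Ccnd3, and Rb1. They were taken by gene symbol from a count table of 54532 entries, in which all 10 were found, and 9 of them had enough counts to enter a test of 14150 genes. Of these 9, the D cyclins Ccnd1 and Ccnd3 were called lower by edgeR in lung fibroblasts of transgenic mice. Both calls were lost without the transgenic library HOMO1 or HOMO2, and when closely similar libraries were summed. No CDK inhibitor passed both thresholds of edgeR's test in either direction. Cdkn1b (p27Kip1) was higher in every transgenic library by less than the fold threshold.

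D cyclins bind CDK4 and CDK6 and carry growth factor signals to the retinoblastoma protein Rb1, whose phosphorylation frees E2F factors to transcribe S phase genes. The INK4 inhibitors, encoded by Cdkn2a, Cdkn2b and Cdkn2c, bind CDK4 and CDK6 themselves, whereas the Cip/Kip inhibitors, encoded by Cdkn1a, Cdkn1b and Cdkn1c, act on cyclin and CDK pairs. Cultured fibroblasts that enter senescence, a lasting arrest, typically raise p21 (from Cdkn1a) and p16Ink4a (from Cdkn2a), lose lamin B1 and secrete cytokines, growth factors and proteases.

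The RNAseq data comprise 8 libraries of primary lung fibroblasts (pFBs) grown from minced lungs of female mice on a C57/black background. WT1 to WT4 came from wild type mice. HOMO1 to HOMO4 came from mice homozygous for a human IGFBP5 (hIGFBP5) transgene, knocked in with CRISPR/Cas9 and driven in all tissues by the Ef1a1 promoter. Cells of both genotypes were grown in complete serum-containing medium and received no treatment, and n counts libraries. The ages of the mice, the number of mice behind the libraries and whether same-numbered libraries share a day are not given in the sources used here, so p-values measure the spread between these libraries, which may in part be technical. The human transgene itself was not analysed here.

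The WT libraries hold 17236521 to 29028769 counted reads each and the HOMO libraries 19009027 to 31987790. At these depths 3 counts, the floor used here, equalled 0.0908 to 0.172 CPM (counts scaled to library size, on the CPM scale, with TMM factors), which covers counting error only. The libraries were not equally independent. WT1 and WT2 varied by 7.65% per gene beyond counting noise, HOMO1 and HOMO2 by 4.71%, and HOMO3 and HOMO4 by 5.07%, whereas the other pairs of a genotype varied by 30.05% to 56.5%. The counts of those 3 pairs still differed by more than sampling noise (chi-square per gene 4.24 to 8.91, where counting noise alone gives about 1), so none was taken for a library deposited more than once and all 8 were kept. This does not show that the paired libraries came from separate mice. When each of those pairs was summed, leaving 3 WT and 2 HOMO units, edgeR called 0 of 16130 genes, with 2057 (12.8%) at an unadjusted p under 0.05, so every call below rests on counting the paired libraries separately. The fibroblast markers fit the label, with 10 of 10 tested, whose summed level was 19040 to 25800 CPM in WT and 19257 to 32079 CPM in HOMO libraries. Macrophage markers (7 of 8 tested) stood out in WT3 and WT4, at a summed 1953 and 1135 CPM, against 131 and 158 CPM in WT1 and WT2 and 57.0 to 187 CPM in HOMO libraries. WT3 and WT4 are also the libraries in which several CDK inhibitors were highest, and the part of macrophage RNA in those levels was not tested. In bulk RNA, fewer cells of a type and less RNA per cell cannot be told apart.

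Promoter sequences are shown for the members whose pattern the results turn on, as far as RefSeq entries of GRCm38.p6 (mm10) were matched. Entries were found for 6 of the 10 members, and none was matched for Cdkn1c, Ccnd1, Ccnd2 and Rb1. Each line gives the 250 bases before a transcription start, 5′ to 3′ on the gene's strand, and each run of capitals is 1 match to a motif on either strand. The motifs searched were the E2F site spelled TTTNNCGC and the CRE spelled TGACGTCA. For the GC box the letters searched were GGGCGG. The CCAAT box carries its own letters in its name. For the E-box the search took CACGTG. An AP-1 site was read as TGANTCA. The FOXO site was searched with the letters GTAAACA. Cdkn1b and Ccnd3 are printed because they were the 2 matched members past the adjusted p, and Cdkn2a and Cdkn2b because they lie side by side and were highest in the same libraries.
Cdkn1b (chr6:134920151-134920400, + strand): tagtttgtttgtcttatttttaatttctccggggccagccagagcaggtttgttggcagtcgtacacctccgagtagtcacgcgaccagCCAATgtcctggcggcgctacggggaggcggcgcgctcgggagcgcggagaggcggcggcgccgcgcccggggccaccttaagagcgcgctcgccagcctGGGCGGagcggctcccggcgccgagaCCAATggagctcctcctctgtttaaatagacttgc
Ccnd3 (chr17:47504801-47505050, + strand): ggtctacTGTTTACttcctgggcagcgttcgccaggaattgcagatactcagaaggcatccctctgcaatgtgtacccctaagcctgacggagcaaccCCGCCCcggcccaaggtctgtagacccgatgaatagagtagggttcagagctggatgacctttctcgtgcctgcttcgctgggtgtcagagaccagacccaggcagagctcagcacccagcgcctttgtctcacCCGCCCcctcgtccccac
Cdkn2a, p16Ink4a start (chr4:89282193-89282442, - strand): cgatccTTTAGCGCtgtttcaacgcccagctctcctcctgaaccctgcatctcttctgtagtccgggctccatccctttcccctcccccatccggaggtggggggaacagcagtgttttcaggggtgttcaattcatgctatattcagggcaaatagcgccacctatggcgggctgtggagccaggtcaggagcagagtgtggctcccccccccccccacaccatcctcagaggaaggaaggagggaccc
Cdkn2b (chr4:89311033-89311282, - strand): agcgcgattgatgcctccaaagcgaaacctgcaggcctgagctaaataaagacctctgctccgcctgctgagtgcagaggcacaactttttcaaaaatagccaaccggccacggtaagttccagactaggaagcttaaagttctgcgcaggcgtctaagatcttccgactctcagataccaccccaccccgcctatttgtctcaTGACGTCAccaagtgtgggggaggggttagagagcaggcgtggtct

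The Cdkn1b window holds 1 GC box and 2 CCAAT boxes. The printed Ccnd3 window holds 2 GC boxes and 1 FOXO match, and the window of its second start, not printed, 1 GC box and 1 CCAAT box. An E2F match stands in the p16Ink4a window of Cdkn2a and a CRE in that of Cdkn2b. The window of the upstream p19Arf start of Cdkn2a, not printed, also holds 1 E2F match, with 2 GC boxes. Of 32851 RefSeq windows of the same length, 32.74% held a GC box, 33.85% a CCAAT box, 4.28% an E2F match, 3.166% a FOXO match, 1.546% a CRE, 6.021% an E-box and 6.749% an AP-1 match. A match describes letters and not a bound site.

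The first question was whether HOMO pFBs carry more CDK inhibitor mRNA than WT pFBs. A gene was called a DEG at an adjusted p under 0.05 in edgeR's two-sided quasi-likelihood F test and an absolute log2 fold change above 0.6. By this rule 1716 of 14150 genes (12.1%) were called, 841 higher (5.94%) and 875 lower in HOMO (6.18%). Of the 9 tested members, 2 were called, both lower, and 0 were called higher, with a median log2 fold change of -0.64 against -0.04 over all tested genes. The genotypes did not overlap for 3 members, Cdkn1b (higher), Ccnd1 and Ccnd3 (lower), where 27.3% of all tested genes did not overlap, 14.0% higher and 13.4% lower in HOMO. At an unadjusted p under 0.05, 6 of 9 members and 32.3% of tested genes passed. DESeq2 called 2 members lower and 2913 of the 27324 entries with at least 1 count (10.7%), a larger set without the count filter. By limma-voom with sample weights, 3 members were called lower, with 25.3% of the 14150 genes called. The share of genes called was 6.69% with the replicate number as a block, 0.00% with near-identical libraries summed, 11.0% relative to chromosome medians and 10.3% relative to neighbours. It was 9.75%, 8.29%, 15.0% and 12.8% without WT1, WT2, WT3 or WT4, and 3.52%, 3.56%, 7.11% and 6.72% without HOMO1, HOMO2, HOMO3 or HOMO4. At an adjusted p under 0.01 it was 2.81%.

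**Figure D1:**
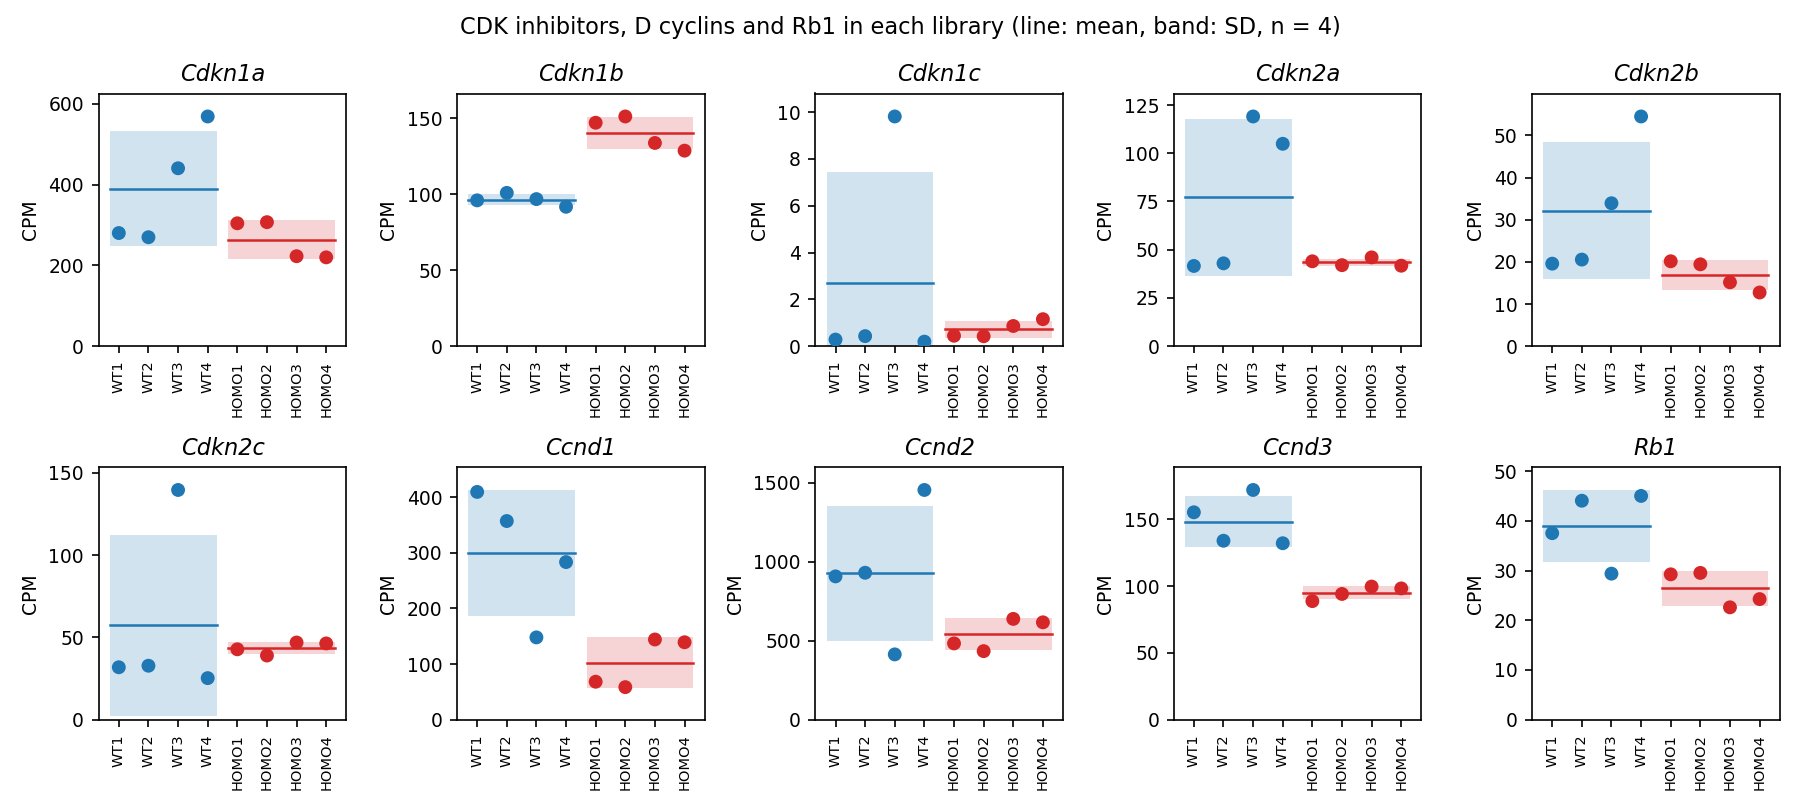
Levels of the 10 genes in CPM (y axis, from 0, a scale per gene) in each of the 4 WT (blue) and 4 HOMO (red) libraries; points are libraries, lines genotype means and bands SD, cut at 0. Cdkn1b sits higher and Ccnd1 and Ccnd3 lower in every HOMO library, while Cdkn1a, Cdkn2a, Cdkn2b and Cdkn2c are raised in 1 or 2 WT libraries.

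Among the Cip/Kip inhibitors, Cdkn1b separated the genotypes and Cdkn1a did not. Cdkn1b (chr6:134920401-134925513, + strand) encodes p27Kip1, the inhibitor that holds cyclin E and CDK2 in check in resting cells. Its level was 96.0, 101, 96.8 and 91.7 CPM in WT1 to WT4 and 147, 151, 134 and 129 CPM in HOMO1 to HOMO4. The 4 WT libraries lay within a narrow band and all 4 HOMO libraries above it. Its log2 fold change was 0.54 (SE 0.11, 95% interval 0.29 to 0.79, edgeR adjusted p 0.0176), a rise from 96.4 ± 3.75 to 140.2 ± 10.7 CPM (SD, n = 4), which passed the adjusted p but not the fold threshold. By adjusted p alone, 13.4% of tested genes passed, of which 6.48% higher and 6.93% lower in HOMO as shares of all. The adjusted p was over 0.05 without HOMO1 (0.0731) or HOMO2 (0.0755), with the replicate number as a block (0.0642) and with near-identical libraries summed (0.382).

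Cdkn1a (chr17:29090976-29100727, + strand) encodes p21, the main p53-induced inhibitor in stressed and senescent cells. Cdkn1a stood at 280.2, 269.9, 441 and 569 CPM in WT1 to WT4, and at 304, 307, 223 and 220.0 CPM in HOMO1 to HOMO4. Its highest levels were in WT3 and WT4, and HOMO1 and HOMO2 fell between those and the other 4 libraries. The log2 difference was -0.56 (SE 0.27, 95% interval -1.17 to 0.04, edgeR adjusted p 0.180). It was -0.32 without WT4 and -0.17 in limma-voom.

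Cdkn1c (chr7:143458339-143461050, - strand) encodes p57Kip2, an imprinted inhibitor of embryonic tissues. It was near the floor, at 0.281, 0.429, 9.81 and 0.194 CPM in WT1 to WT4 and 0.446, 0.424, 0.862 and 1.15 CPM in HOMO1 to HOMO4. WT3 alone held 171 of the 191 WT counts (89.5%). Its mean differed by -1.96 CPM between the genotypes, with a two-sided exact permutation p of 0.971 over 70 assignments of libraries, whose smallest possible p is 0.0286. Without WT3 the difference was 0.42 CPM in the other direction (exact p = 0.114).

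Of the INK4 inhibitors, 0 of 3 were called in edgeR, where 2 had an unadjusted p under 0.05, and DESeq2 called 0. Each was highest in a WT library. Cdkn2a (chr4:89274471-89294653, - strand) encodes p16Ink4a and, from an upstream start in another reading frame, the MDM2 antagonist p19Arf, and the gene counts do not separate the 2 products. Cdkn2a measured 41.6, 42.9, 119 and 104.9 CPM in WT1 to WT4, whereas HOMO1 to HOMO4 had 44.0, 42.0, 46.0 and 41.7 CPM. All 4 HOMO libraries lay close to WT1 and WT2, and WT3 and WT4 were higher. The log2 difference was -0.83 (SE 0.35, 95% interval -1.62 to -0.03, edgeR adjusted p 0.142). It was -0.54 without WT3 and -0.0088 in limma-voom, which gives outlying libraries less weight.

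Cdkn2b (chr4:89306299-89311039, - strand), the neighbour of Cdkn2a, encodes p15Ink4b, which TGF-beta induces in many cells. Libraries WT1 to WT4 held 19.6, 20.5, 33.9 and 54.5 CPM of it and HOMO1 to HOMO4 held 20.1, 19.4, 15.2 and 12.7 CPM. Here too WT3 and WT4 were highest, and HOMO3 and HOMO4 lay below all other libraries. Its log2 difference was -0.93 (SE 0.34, 95% interval -1.71 to -0.15, edgeR adjusted p 0.103). It was -0.55 without WT4 and -0.40 in limma-voom. Relative to tested genes within 2 Mb it was -1.33 (adjusted p 0.0289), an alternative added after the data were seen.

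Cdkn2c (chr4:109660876-109667189, - strand) encodes p18Ink4c, an inhibitor linked to differentiation. Its level in WT1 to WT4 was 31.8, 32.8, 139.6 and 25.2 CPM, and 42.8, 39.0, 46.9 and 46.3 CPM in HOMO1 to HOMO4. A single library, WT3, set the WT mean, and the other 3 WT libraries lay below all HOMO libraries. The log2 difference was -0.39 (SE 0.52, edgeR adjusted p 0.639), and turned to 0.54 (adjusted p 0.0295) without WT3 and to 0.44 (adjusted p 0.0171) in limma-voom. It was -0.57 (edgeR adjusted p 0.772) with near-identical libraries summed.
Cdkn2d, the INK4 gene outside the 10, had a log2 difference of -0.36 (SE 0.34, adjusted p 0.499).

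**Figure D2:**
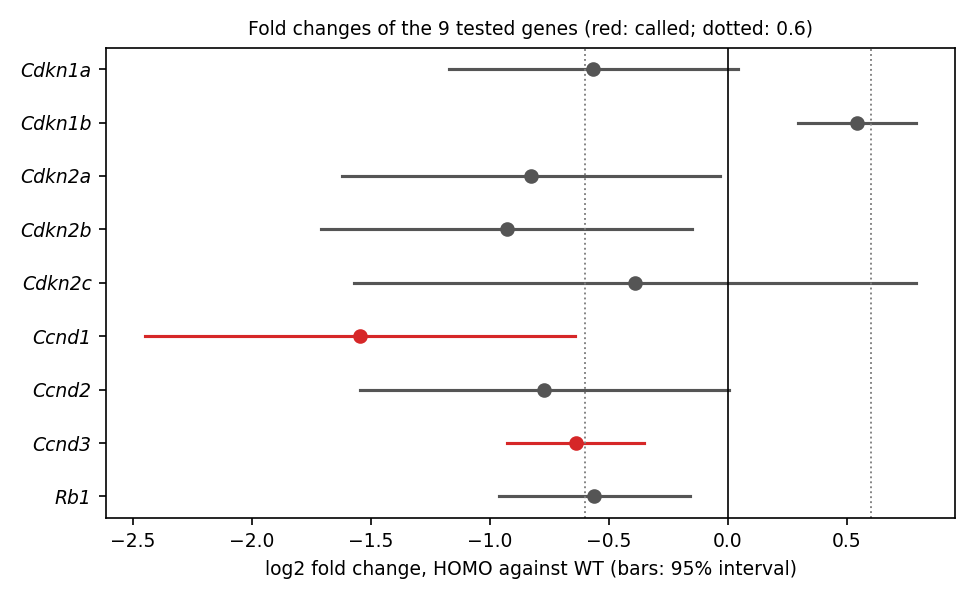
Log2 fold change of HOMO against WT (x axis) for the 9 tested members, with points for the estimate and bars for the 95% interval; red marks genes called and dotted lines the fold threshold of 0.6. Ccnd1 (-1.55) and Ccnd3 (-0.64) are called, and the interval of Cdkn1b (0.29 to 0.79) lies above 0.

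Of the D cyclins, Ccnd1 and Ccnd3 fell in HOMO pFBs, and Ccnd2 did not pass edgeR's test. Ccnd1 (chr7:144929931-144939925, - strand) encodes cyclin D1, the D cyclin most tied to mitogen signals in fibroblasts. It was 409, 357, 148 and 283 CPM in WT1 to WT4 against 68.2, 58.5, 144 and 139 CPM in HOMO1 to HOMO4. The genotypes did not overlap, but WT3 lay only just above HOMO3 and HOMO4, and HOMO1 and HOMO2 were the lowest. Ccnd1 fell by 1.55 on the log2 scale (-1.55, SE 0.40, 95% interval -2.45 to -0.64, edgeR adjusted p 0.0376), from 299 ± 113 to 102 ± 45.4 CPM (SD, n = 4). The call was kept without WT3 (-1.77, adjusted p 0.0151) and lost without any other single library, with adjusted p of 0.0525 to 0.116. It was also lost with the replicate number as a block (-1.58, adjusted p 0.118), with near-identical libraries summed (-1.40, adjusted p 0.379), and relative to its chromosome or its neighbours, as given below.

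Ccnd3 (chr17:47505051-47599691, + strand) encodes cyclin D3, known for its part in lymphocyte and muscle cells. WT1 to WT4 had 155, 134, 172 and 132 CPM of Ccnd3, and HOMO1 to HOMO4 had 88.7, 94.1, 99.6 and 98.2 CPM. The 4 HOMO libraries were close together and each lay below the lowest WT library. Ccnd3 fell by 0.64 (-0.64, SE 0.13, 95% interval -0.93 to -0.35, edgeR adjusted p 0.0165), from 148 ± 18.9 to 95.1 ± 4.89 CPM (SD, n = 4), just past the fold threshold. The call was lost on the fold without WT3 (-0.56, adjusted p 0.00993) and in limma-voom (-0.52). It was lost on the adjusted p without HOMO1 (0.0722) or HOMO2 (0.0702), in the blocked fit (0.0599) and with the pairs summed (0.379). It was kept in DESeq2 (-0.64, adjusted p 5.45e-04) and relative to its chromosome median (-0.75, limma adjusted p 0.00896). Relative to neighbours within 2 Mb, an alternative added after the data were seen, it was also kept (-0.69, limma adjusted p 0.0135).

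Ccnd2 (chr6:127125162-127152193, - strand) encodes cyclin D2, the most abundant D cyclin here. Its levels were 907, 930.2, 413 and 1454 CPM in WT1 to WT4 and 483, 434, 638 and 616 CPM in HOMO1 to HOMO4. WT3 lay below all HOMO libraries and the other 3 WT libraries above them. The log2 difference was -0.77 (SE 0.34, 95% interval -1.55 to 0.00, edgeR adjusted p 0.156). Ccnd2 passed both thresholds without WT3 (-1.02, adjusted p 0.0209) and in limma-voom (-0.70, adjusted p 0.00203). With near-identical libraries summed, the log2 difference was -0.77 (edgeR adjusted p 0.571). Without WT4 it was -0.47.

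Per length, the 3 D cyclins together reached 201, 189.9, 94.9 and 229.8 CPM per kb of exon in WT1 to WT4 and 75.9, 69.3, 109.8 and 106 CPM per kb in HOMO1 to HOMO4. WT3 stood between HOMO1 and HOMO4 on this summed scale, so the genotypes overlapped. Ccnd1 made up 43.2%, 39.9%, 33.1% and 26.2% of the sum in WT1 to WT4, and 19.1%, 17.9%, 27.9% and 27.8% in HOMO1 to HOMO4. Ccnd2 was the largest share in every library, from 46.3% in WT3 to 67.6% in HOMO1.

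**Figure D3:**
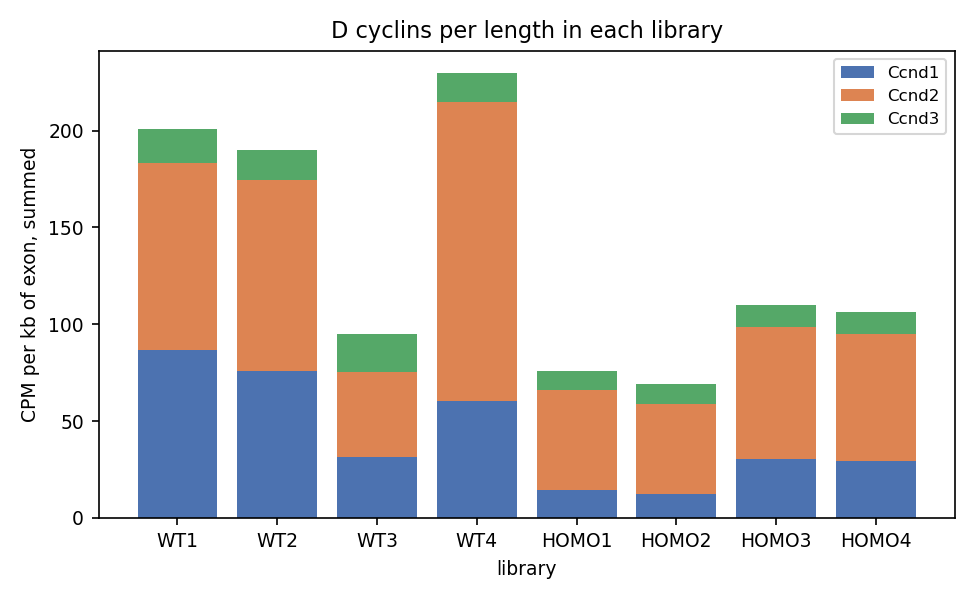
Summed level of Ccnd1, Ccnd2 and Ccnd3 (stacked bars) in CPM per kb of exon on the y axis, from 0, for each library on the x axis. Ccnd2 is the largest share in all 8 libraries, and the Ccnd1 share is smallest in HOMO2 (17.9%) and HOMO1 (19.1%).

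Rb1 (chr14:73183673-73325822, - strand), the target that D cyclins and CDK4 or CDK6 inactivate, was lower without passing edgeR's test. It was 37.5, 44.1, 29.4 and 45.0 CPM in WT1 to WT4 and 29.2, 29.5, 22.6 and 24.3 CPM in HOMO1 to HOMO4. WT3 lay beside HOMO1 and HOMO2, and the other WT libraries were above all HOMO libraries. The log2 difference was -0.56 (SE 0.18, 95% interval -0.96 to -0.16, edgeR adjusted p 0.0676). Rb1 passed both thresholds without WT3 (-0.68, adjusted p 0.0176) and in limma-voom (-0.74, adjusted p 6.14e-04). In limma-voom 55.2% of all tested genes had an unadjusted p under 0.05. With near-identical libraries summed, Rb1 had -0.53 (edgeR adjusted p 0.485). Its relatives Rbl1 (p107) and Rbl2 (p130) had log2 differences of -0.14 (SE 0.53, adjusted p 0.884) and 0.53 (SE 0.20, adjusted p 0.112).

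Compared per length, the order of the mean levels over 8 libraries was Cdkn1a (92.0 CPM per kb), Ccnd2 (78.1), Cdkn2a (51.4), Ccnd1 (42.7), Cdkn1b (26.0), Cdkn2c (18.8), Cdkn2b (17.6), Ccnd3 (13.9), Rb1 (5.44) and Cdkn1c (0.834). The ranges over the 8 libraries overlapped for every pair of neighbours in that order except Ccnd3 and Rb1, where the lowest Ccnd3 library (10.1 CPM per kb) lay above the highest of Rb1 (7.48). Rb1 and Cdkn1c overlapped through WT3, where Cdkn1c reached 4.81 CPM per kb. The partner kinases Cdk4 and Cdk6 differed from each other, at 85.0 to 108 and 3.003 to 7.75 CPM per kb.

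Reads of several members cannot be told apart from those of overlapping genes, since the strand setting of the counting is not given in the sources used here. For Ccnd1, 23.4% of its exon bases overlap the opposite-strand gene Oraov1 (LTO1 in the annotation), which itself fell in HOMO (-0.86, SE 0.18, adjusted p 0.0195) from 21.5 to 31.2 CPM in WT libraries to 12.2 to 16.6 CPM. Smaller overlaps were those of Cdkn1a with AC167363.2 (7.68% of Cdkn1a exon), Rb1 with Rcbtb2 (8.11%) and Lpar6 (6.78%), Ccnd3 with Bysl (4.11%), and Ccnd2 with Gm43126 (3.95%) and 9330179D12Rik (3.91%). None of these 6 partners was called, with log2 differences of 0.79, 0.28, -0.14, -0.51 and 0.26 for AC167363.2, Rcbtb2, Lpar6, Bysl and 9330179D12Rik and Gm43126 outside the test. Cdkn1c shares 30.7% of its exon bases with Gm44732, which had 0 counts in all libraries.

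Of 12 kinases, cyclins and pocket proteins that work with the members, 0 were called higher and 1 lower. That is 8.33%, near the 12.1% of all tested genes, and their median log2 fold change was -0.23. The called gene was Ccnh, the cyclin of the CDK-activating kinase, which fell by 0.84 (-0.84, SE 0.21, edgeR adjusted p 0.0354) from 49.3 ± 14.7 to 27.5 ± 1.41 CPM (SD, n = 4). Relative to its chromosome the difference in Ccnh was -0.62 (limma adjusted p 0.0755), and the call was lost. The D cyclin kinases Cdk4 and Cdk6 had log2 differences of 0.20 (SE 0.11, adjusted p 0.258) and -0.53 (SE 0.25, adjusted p 0.173).

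In the E2F family, which Rb1 and its relatives hold in check, 1 of 10 genes (10%) was called, against 12.1% of all tested genes. E2f1, an activating member, was 83.2, 72.5, 97.6 and 75.1 CPM in WT1 to WT4 and 27.5, 27.9, 47.2 and 41.1 CPM in HOMO1 to HOMO4. Every WT library lay above every HOMO library, and E2f1 fell by 1.19 (-1.19, SE 0.21, edgeR adjusted p 0.0113). Relative to its chromosome the difference in E2f1 was -1.17 (limma adjusted p 0.00915), and the call was kept. Chosen after its value was seen, E2f4, a repressive member that works with p130, had a log2 difference of 0.53 (SE 0.15, adjusted p 0.0464), under the fold threshold. E2f4 lies on chromosome 8, whose genes had a median difference of 0.37, and relative to its chromosome the difference was 0.14 (limma adjusted p 0.554). The family's median was -0.28.

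Of 14 tested genes for the turnover of D cyclins, p21 and p27, 1 was called higher and 1 lower. That is 14.3%, against 12.1% of all tested genes, and their median was 0.13. Fbxo31, an F-box protein that targets cyclin D1 for degradation, rose by 0.76 (SE 0.20, edgeR adjusted p 0.0402) from 20.5 ± 5.31 to 34.7 ± 2.88 CPM (SD, n = 4). It lies on chromosome 8, whose 790 genes differed by a median of 0.37 between HOMO and WT. Relative to that chromosome the difference in Fbxo31 was 0.39 (limma adjusted p 0.233), and the call was lost. Fbxo4, which has also been tied to cyclin D1 turnover, fell by 0.80 (-0.80, SE 0.19, adjusted p 0.0320) from 23.5 ± 5.57 to 13.5 ± 1.28 CPM (SD, n = 4). Relative to its chromosome the difference in Fbxo4 was -0.75 (limma adjusted p 0.0343), and the call was kept. Among 25 transcriptional and chromatin regulators of the members (4% called, against 12.1% of all tested genes), 0 were called higher and 1 lower, with a median of 0.10. That gene was Klf4, a zinc finger factor known to act on Cdkn1a, which fell by 1.57 (-1.57, SE 0.33, adjusted p 0.0194) from 149, 140.2, 55.9 and 166 CPM in WT1 to WT4 to 34.4, 35.4, 49.8 and 52.4 CPM in HOMO1 to HOMO4. WT3 was the lowest WT library and only just above HOMO4. Relative to its chromosome the difference in Klf4 was -1.45 (limma adjusted p 0.0251), and the call was kept. Trp53, which drives Cdkn1a, had a log2 difference of -0.06 (SE 0.27, adjusted p 0.899).

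The proliferation genes varied widely between libraries of the same genotype. The summed level of 24 S phase genes was 2494, 2123, 555 and 472 CPM in WT1 to WT4 and 739, 764, 1933 and 1685 CPM in HOMO1 to HOMO4. The 15 mitosis genes summed to 1764, 1548, 236 and 103 CPM in WT1 to WT4 and 245, 235, 1313 and 1193 CPM in HOMO1 to HOMO4. Every one of the 24 and of the 15 genes was lower in each of WT3, WT4, HOMO1 and HOMO2 than in all of WT1, WT2, HOMO3 and HOMO4, an order noticed in these data and given with no test. Both genotypes thus hold 2 libraries with high and 2 with low proliferation transcripts, but both HOMO pairs and the high WT pair are the near-identical ones, so each of them may be 1 unit.

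In edgeR 0 genes of either list were called and 0 had an unadjusted p under 0.05. DESeq2 called 0 in both, and limma-voom with sample weights called 5 S phase genes lower and 0 mitosis genes. The smallest adjusted p in edgeR were 0.393 for Cdt1, a replication licensing factor (log2 difference 0.90, SE 0.68), and 0.447 for Rrm2, a subunit of ribonucleotide reductase (-0.996, SE 0.84), in the S phase list. In the mitosis list they were 0.621 for the kinase Plk1 (-0.77, SE 0.98) and 0.644 for the kinase Aurka (-0.67, SE 0.90).

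Read against this order, the 4 libraries with low proliferation transcripts did not share their inhibitor levels. Cdkn1a, Cdkn2a and Cdkn2b were highest in WT3 and WT4, at 441 and 569, 119 and 104.9, and 33.9 and 54.5 CPM, whereas HOMO1 and HOMO2 had 304 and 307, 44.0 and 42.0, and 20.1 and 19.4 CPM of the same genes. Cdkn2a in HOMO1 and HOMO2 was thus at the level of WT1 and WT2 (41.6 and 42.9 CPM), whose proliferation genes were high. Ccnd1 was lowest in HOMO1 and HOMO2. Cdkn1b lay with genotype and not with this order.

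**Figure D4:**
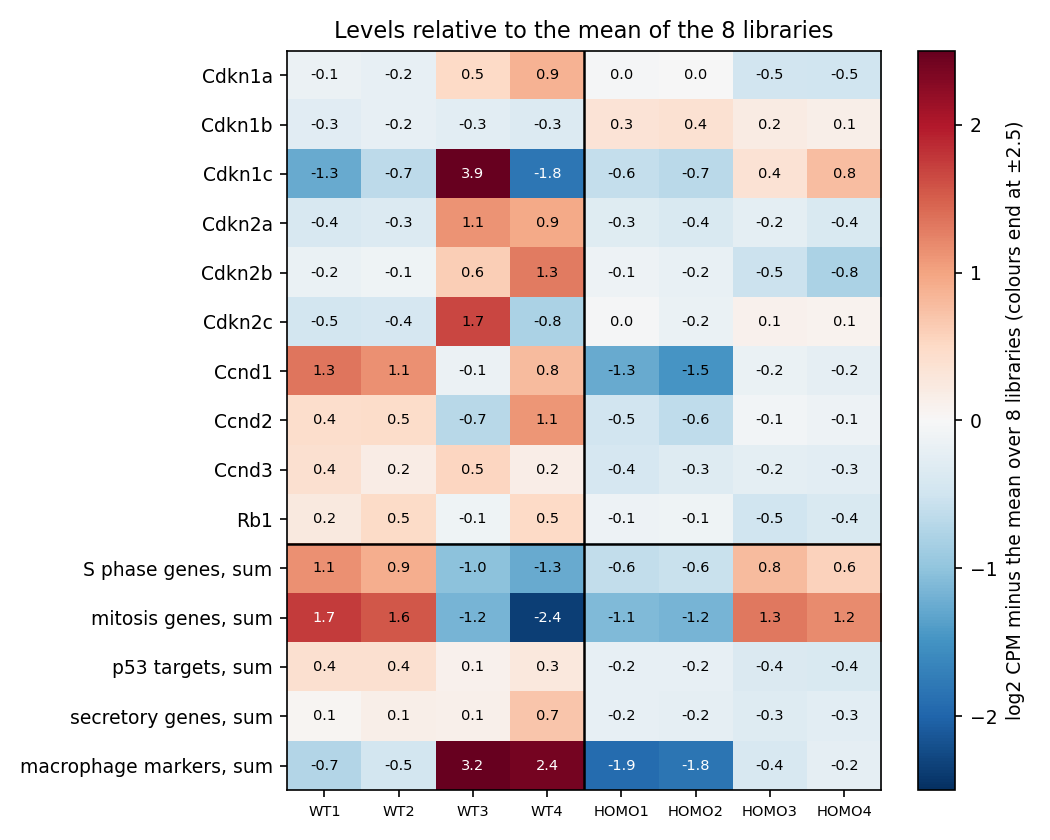
Log2 CPM of each member, and of the summed CPM of 5 gene lists, minus its mean over the 8 libraries (colour and printed value), with members in the rows above the line, lists below it and libraries in columns. S phase and mitosis sums are low in WT3, WT4, HOMO1 and HOMO2, while Cdkn1a, Cdkn2a and Cdkn2b are raised in WT3 and WT4 among those 4.

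The other senescence genes moved, where they moved, mostly down in HOMO pFBs. Of 5 genes that fall in senescent cells, 0 were called in edgeR, 0 had an unadjusted p under 0.05, and DESeq2 and limma-voom called 0. Lmnb1, encoding lamin B1, was 108, 85.0, 19.8 and 11.1 CPM in WT1 to WT4 and 27.8, 23.3, 74.2 and 59.2 CPM in HOMO1 to HOMO4, following the order of the proliferation genes. Its log2 difference was -0.28 (SE 0.70, adjusted p 0.816). The chromatin proteins Hmgb1 and Hmgb2 had -0.20 (SE 0.22, adjusted p 0.571) and 0.64 (SE 0.73, adjusted p 0.584).

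Of 36 secreted or surface factors of senescent cells, 30 were tested, 0 were called higher and 11 were called lower (36.7%, against 6.18% of all tested genes), with a median of -1.29. DESeq2 called 1 higher and 20 lower, and limma-voom 4 higher and 17 lower. Among the called genes, named after their values were seen except for Igfbp4, were Il6, Ccl7, Csf1, Timp1, Plaur, Igfbp4, Igfbp7, Vegfa, Icam1 and Inhba. Igfbp4, an IGF carrier, had the largest fall among the called genes of the list, by 3.54 (-3.54, SE 0.34, edgeR adjusted p 0.00124), from 369.6, 396, 391 and 139.6 CPM in WT1 to WT4 to 23.5, 27.1, 28.6 and 32.4 CPM in HOMO1 to HOMO4. The lowest WT library, WT4, was still well above every HOMO library. The cytokine Il6 fell by 3.01 (-3.01, SE 0.49, adjusted p 0.00855).

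A further list of senescence marks had 15 of 17 genes in the table, with Cdkn1a, Cdkn2a and Cdkn2b among them. Of these 15, 1 was called higher and 2 lower (20%, against 12.1% of all tested genes), with a median of -0.56. H2afy2, a macroH2A histone variant, rose by 1.003 (SE 0.20, edgeR adjusted p 0.0158) from 26.9 ± 5.37 to 53.9 ± 10.04 CPM (SD, n = 4). Fuca1, a lysosomal fucosidase, fell by 1.32 (-1.32, SE 0.29, adjusted p 0.0231) from 126 ± 54.5 to 50.7 ± 2.87 CPM (SD, n = 4), with its highest levels in WT3 (184 CPM) and WT4 (162 CPM). Lmna, named after its value was seen, was the other gene called lower.

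Of 22 p53 target genes other than Cdkn1a, edgeR called 0 higher and 4 lower (18.2%, against 6.18% of all tested genes), with 11 at an unadjusted p under 0.05 and a median of -0.43. DESeq2 called 0 higher and 6 lower, and limma-voom 3 higher and 11 lower. The 4 genes called lower in edgeR were Fas and, named after their values were seen, Ccng1, Pmaip1 and Phlda3. The death receptor gene Fas was 49.4, 52.3, 54.2 and 52.7 CPM in WT1 to WT4 and 16.6, 18.7, 15.7 and 16.9 CPM in HOMO1 to HOMO4. Replicates hardly varied, and Fas fell by 1.62 (-1.62, SE 0.12, edgeR adjusted p 4.17e-04), in contrast to Cdkn1a, whose genotypes overlapped.

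Ccnd1 and Cdkn1c lie near the end of chromosome 7, where tested genes were lower in HOMO as a group. Within 2 Mb of Ccnd1, 20 of 23 tested genes were lower, 9 were called lower and 0 higher, with a median of -0.71. Within 2 Mb of Cdkn1c, 38 of 44 were lower, 17 were called lower and 0 higher, with a median of -0.91. Both windows share genes. Within 40 Mb of Ccnd1, 286 of 332 tested genes were lower in HOMO, with a median of -0.60 and 74 called lower (22.3%) against 3 called higher, and the remaining 712 genes of the chromosome had a median of -0.12, 35 called lower (4.92%) and 20 higher. The distance of 40 Mb was chosen after the values were seen. In 10 Mb steps the medians were -0.77 to -0.48 within it and -0.39 to 0.02 beyond it.

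All 4 HOMO libraries carried this shift. Relative to each gene's mean over the 8 libraries, the median of the 23 neighbours of Ccnd1 was 0.27, 0.28, 0.53 and 0.31 on the log2 scale in WT1 to WT4 and -0.48, -0.42, -0.25 and -0.16 in HOMO1 to HOMO4. WT3 was high along the whole chromosome, with medians of 0.53 within 40 Mb of Ccnd1 and 0.30 beyond. The other WT libraries had 0.14 to 0.19 within 40 Mb and -0.070 to -0.0069 beyond. The part of WT3 in the shift was not tested. The fall of Ccnd1 relative to the median of its chromosome was -1.35 (adjusted p 0.0766), and relative to its neighbours within 2 Mb, an alternative added after the data were seen, it was -0.89 (adjusted p 0.178). The fall of Ccnd1 is thus larger than the median shift of its neighbours but was not past the threshold in these 2 fits. Both used limma on log2 CPM in place of edgeR, and the part of that change of test in the lost call was not tested.

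**Figure D5:**
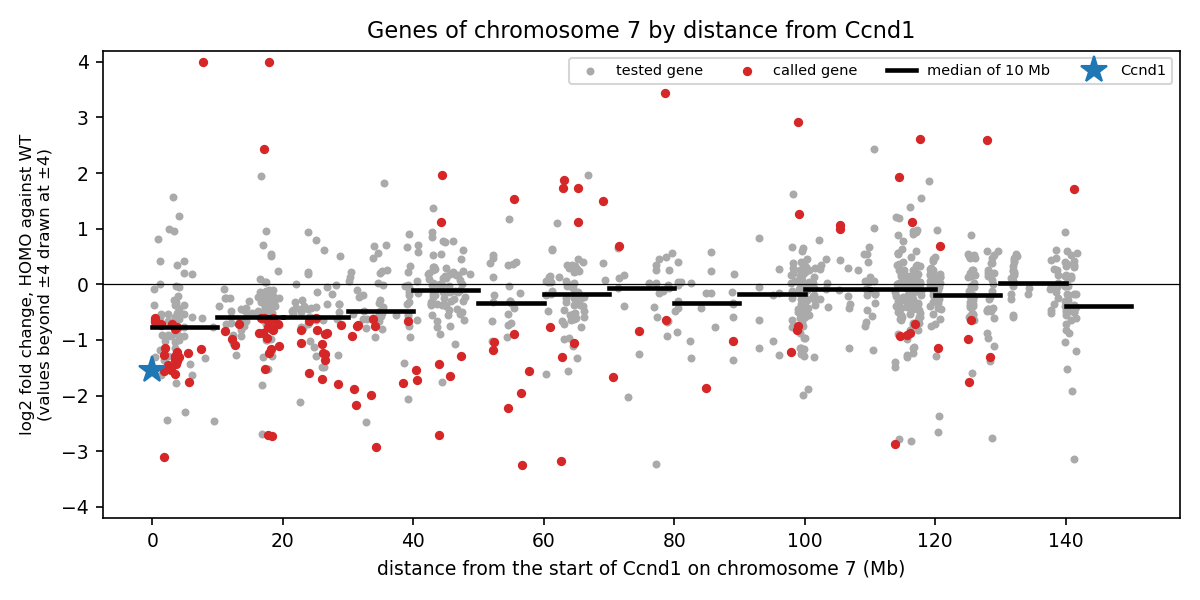
Log2 fold change of HOMO against WT (y axis) of the tested genes of chromosome 7 by distance in Mb from the start of Ccnd1 (x axis); grey points are tested genes, red points called genes, black lines medians of 10 Mb steps, the star is Ccnd1, and values beyond the axis limits of -4 and 4 are drawn at them. The medians lie between -0.77 and -0.48 within 40 Mb of Ccnd1 and between -0.39 and 0.02 farther away.

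Imprinted and neighbouring genes beside Cdkn1c showed the same direction, with 8 of 12 tested, 8 of 8 lower in HOMO, 4 called lower and 0 higher, and a median of -0.97. The called genes were Tssc4 (-1.56, SE 0.23, edgeR adjusted p 0.00576), Cd81 (-1.27, SE 0.21, adjusted p 0.00944), Nap1l4 (-0.73, SE 0.15, adjusted p 0.0172) and Cars (-0.71, SE 0.16, adjusted p 0.0264). Osbpl5, the sterol carrier gene at the far side, had -0.58 (adjusted p 0.0292), under the fold threshold. Slc22a18, Kcnq1ot1 and Tspan32 had -0.92, -1.36 and -1.02 (adjusted p 0.150, 0.224 and 0.285). Kcnq1, Phlda2 and Ascl2 were at or under 0.858 CPM in every library and were not tested, and Cdkn1c, the 12th of the list, is given above.

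Around Cdkn2a and Cdkn2b the tested genes were not lower in HOMO as a group. Of 9 tested genes within 2 Mb of Cdkn2a, Cdkn2b among them, 0 were called and 2 were lower in HOMO. Their median was 0.48, opposite in sign to Cdkn2a (-0.83) and Cdkn2b (-0.93). In the list of 9 genes of that stretch, which holds Cdkn2a and Cdkn2b, 7 were tested, 3 had an unadjusted p under 0.05, 0 were called in edgeR or DESeq2 and 1 in limma-voom. Mtap, the gene next to Cdkn2a that is often lost with it in tumours, had 0.05 (adjusted p 0.871), and Mllt3, Focad, Klhl9 and Hacd4 had 0.83, 0.48, 0.34 and -0.20 (adjusted p 0.103 to 0.640). Dmrta1 and Elavl2 were at or under 1.03 CPM and were not tested. The WT3 median of the 9 neighbours was -0.79 relative to the 8-library mean, in the library in which Cdkn2a was highest. In WT4, where Cdkn2b was highest, that median was 0.25. Genes of chromosome 4 as a whole had a median of 0.36 in WT4 against the other WT libraries, and -0.17, -0.15 and -0.03 in WT1 to WT3. Relative to the chromosome median the differences in Cdkn2a and Cdkn2b were -0.63 and -0.79 (limma adjusted p 0.210 and 0.104). The part of this in their levels was not tested.

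Around the other members the medians within 2 Mb were -0.21 for Cdkn1b, 0.11 for Cdkn1a, 0.23 for Cdkn2c, -0.04 for Ccnd2, -0.01 for Ccnd3 and -0.16 for Rb1. Of the 21 neighbours of Cdkn1b, 16 were lower and 3 called lower. Relative to them, an alternative added after the data were seen, the difference in Cdkn1b was 0.80 (adjusted p 0.00761), past both thresholds. Relative to its chromosome median it was 0.55 (limma adjusted p 0.0122), under the fold threshold. For Rb1, whose 11 neighbours held 2 called lower, the difference relative to them was -0.32 (adjusted p 0.241).

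For the 3 members with an adjusted p under 0.05, the tested genes with the most similar course over the 8 libraries were found by the root mean square difference of mean-centred log2 CPM among 12678 genes. Closest to Cdkn1b were Slc45a4, a sugar transporter relative (0.0373), and Brd7, a bromodomain protein (0.0502), on a range of 0.72 between its libraries. Closest to Ccnd1 was Map1b, encoding a microtubule-associated protein (0.147), on a range of 2.81. Closest to Ccnd3 were Mrps23, a mitochondrial ribosomal protein (0.0561), and Txnl1, a thioredoxin relative (0.0590), on a range of 0.95.

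Markers of other cells varied between libraries and, for a few genes, between genotypes. Of the fibroblast markers 2 of 10 were called lower, Vim (named after its value was seen) and Pdgfrb (-0.97, SE 0.22, edgeR adjusted p 0.0251), and 0 higher. In the macrophage list 0 of 7 were called in edgeR, 5 had an unadjusted p under 0.05, and DESeq2 called 3 lower and limma-voom 1 higher. The defining macrophage genes Lyz2 (-3.68, adjusted p 0.0665) and Adgre1 (-3.10, adjusted p 0.115) reached 1707 and 38.0 CPM in WT3 and 912 and 54.4 CPM in WT4, against at most 113 and 5.47 CPM elsewhere. Epithelial markers summed to 0.225, 0.429, 0.0574 and 0.542 CPM in WT1 to WT4 and 1.34, 7.05, 15.3 and 4.66 CPM in HOMO1 to HOMO4. In edgeR only Cdh1 was tested and called higher (2.77, SE 0.76, adjusted p 0.0462, at most 2.21 CPM). DESeq2 called 3 of 7 epithelial markers higher and 0 lower, all at low levels. Endothelial markers summed to at most 8.13 CPM, with 2 tested and 0 called or under an unadjusted p of 0.05, and Vwf and Kdr at -0.54 and 0.25. Of 7 tested mesothelial markers 1 was called, Wt1, higher in HOMO (3.36, SE 0.67, adjusted p 0.0166) at 26.8 to 40.6 against 1.12 to 8.66 CPM. DESeq2 called 1 mesothelial marker higher and 1 lower, and limma-voom 6 higher and 1 lower. Their sum was 53.3 to 240.2 CPM in WT and 107.7 to 155 CPM in HOMO libraries. Of 8 smooth muscle markers 1 was called, Rgs5, lower (-5.20, SE 1.46, adjusted p 0.0486), with 36.1 CPM in WT4 and at most 3.86 CPM elsewhere. Smooth muscle markers summed to 936, 864, 2925 and 964 CPM in WT1 to WT4 and 211, 219, 1561 and 1546 CPM in HOMO1 to HOMO4. The part of these cells in the members' levels was not tested.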

How the data were processed

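RNA of pFBs from 4 WT and 4 HOMO cultures was sequenced after poly-A selection with a NEBNext Ultra library kit. The authors used fastp for trimming, STAR with mm10 for alignment and featureCounts for counting per gene, and the deposited table holds these raw counts without normalization. The strand setting and the annotation are not given in the sources used here, and the label of the table speaks of an outlier without stating whether a library was removed. Of 54532 entries, 53661 were matched by symbol to GENCODE M21 (GRCm38), 100 symbols stood on more than 1 entry, and 0 sample columns were left out.

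Counts were tested with edgeR 4.0.16 in R 4.3.3 (TMM, filterByExpr by genotype, two-sided quasi-likelihood F test, Benjamini-Hochberg adjustment over 14150 genes, with DEGs set by an adjusted p under 0.05 together with a log2 fold change beyond 0.6 either way), without a block. Standard errors were taken from the fold change and the F value (absolute estimate over root F), and 95% intervals use the t distribution. Levels are CPM on TMM-scaled sizes (prior count 2 on the log2 scale). Cdkn1c, outside the filter, was compared by an exact permutation test. Alternatives used DESeq2 1.42.0 and limma 3.58.1, other scalings and filters, near-identical libraries summed, the chromosome median, the replicate number as a block and leaving out each library. Fits relative to the chromosome median or to neighbours used limma on log2 CPM in place of edgeR. Scripts were tested on simulated data, with Python 3.11.15 and matplotlib 3.10.9 for tables and plots.

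The members and all gene lists were chosen with earlier results of these data known. Named are the members, the called gene with the largest fold up and down in each list (or the 2 with the smallest adjusted p), all genes of the lists beside Cdkn2a and Cdkn1c, Cdk4, Cdk6, Cdkn2d, Trp53, Rbl1, Rbl2 and Lmnb1, genes that overlap a member's exons, and, for each member with an adjusted p under 0.05, the 2 most similar tested genes, leaving out symbols that start with Gm or end with Rik. Genes named outside this rule are marked as such, and a few results are not reported here. Same-numbered libraries did not deviate together and were not taken as pairs.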

Additional observations from a re-analysis of the deposited data

Results flagged for a closer look

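In 130 groups of 4 libraries, 1 library stood far from the other 3 in 6 cases, by Dixon's test at 95%. Among independent libraries chance alone gives about 1 in 20, near the share seen here, and these libraries were not equally independent. Values are log2 CPM. In WT3, Cdkn1c was 3.31 (others -1.82 to -0.95) and Cdkn2c 7.13 (others 4.66 to 5.04). Klf4 was low in WT3 at 5.81 (others 7.13 to 7.38), and AC167363.2, which overlaps Cdkn1a, was low there at -2.29 (others 1.07 to 1.62). In WT4, Igfbp4 was low at 7.13 (others 8.53 to 8.63). The antisense gene 9330179D12Rik, which overlaps Ccnd2, was low in HOMO4 at -1.79 (others -0.63 to -0.46). Of the 6 cases, 4 were in WT3. WT3 and WT4 are the only libraries outside a near-identical pair, so a flag falls on them more readily.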

How the results depend on the processing

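The 2 calls among the members were lost under several settings. With the replicate number as a block, 0 members and 947 genes were called, against 2 and 1716 in the fit without it. Under the block Ccnd1 had -1.58, Ccnd3 -0.63 and Cdkn2c 0.021, and the signs of Trp53 (0.032), Rbl1 (0.057) and Lmnb1 (0.11) turned. Replicate numbers are only shared, as their deviations did not correlate over 0.1 in every pair (-0.0910, -0.0424, 0.0141 and -0.124). With near-identical libraries summed, 0 members, 0 listed genes and 0 genes were called in edgeR (2057 at an unadjusted p under 0.05), with Ccnd1 at -1.40, Ccnd3 at -0.63, Trp53 at 0.14, Rbl1 at 0.18 and Lmnb1 at 0.13, where only 3 WT and 2 HOMO units remained. At an adjusted p under 0.01, 0 members, 6 listed genes and 398 genes were called, so Ccnd1 (-1.55) and Ccnd3 (-0.64) were lost. Relative to chromosome medians 1 member was called, Ccnd3 (-0.75), with Ccnd1 at -1.35 and Cdkn2c at 0.030. In that setting Igfbp4 (-3.42), Il6 (-2.69), Fas (-1.66), Fuca1 (-1.18) and H2afy2 (0.93) stayed called. Relative to neighbours within 2 Mb, a setting added after the data were seen, Ccnd1 was -0.89, Cdkn1b 0.80 and Cdkn2b -1.33. Without a fold threshold Cdkn1b (0.54) passed. DESeq2 called 55 listed genes of the pathway and 2913 genes, against 32 and 1716, and limma-voom 79 and 3573. In limma-voom Ccnd3 was -0.52, Ccnd2 -0.70, Rb1 -0.74 and Cdkn2c 0.44, and Tspan32 (0.25), Vwf (0.55) and 9330179D12Rik (-0.066) turned sign.

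Leaving out 1 library gave 0 to 3 members, 9 to 43 listed genes and 507 to 2192 genes, the fewest without HOMO1 (507) or HOMO2 (512) and the most without WT3. Over these 8 fits the log2 fold change ran from -1.77 to -1.35 for Ccnd1, -0.69 to -0.56 for Ccnd3, -1.02 to -0.47 for Ccnd2, -0.68 to -0.49 for Rb1 and -0.64 to 0.54 for Cdkn2c, and the CPM difference of Cdkn1c from -2.79 to 0.42. Signs also turned without 1 library for Hacd4 (-0.36 to 0.15), Mtap (-0.079 to 0.15), Kdr (-0.017 to 1.07), Trp53 (-0.25 to 0.16), Rbl1 (-0.42 to 0.19) and Lmnb1 (-0.62 to 0.25). The cause of these changes was not tested. Depth does not limit the 9 tested members, while Cdkn1c is close to the floor in 7 libraries.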
